A study of Mus musculus with 15 samples.

Results

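A set of 9 complement genes was followed through the kidney libraries: C1qa, C1qb, C1qc, C3, C4b, Cfb, Cfi, Cd55 and Cd59a. They were chosen by symbol, as components and regulators of the complement system, and make up 9 of the 23284 rows of the deposited expression table. Earlier results of these data were known when they were chosen. Kidney RNA of wild-type mice was sequenced in 15 libraries, 5 from mice given vehicle, 5 from mice given L-alanine (L-ala) and 5 from mice given D-alanine (D-ala), each with a labelled time of 2 h. The 2 agents are mirror-image forms of the amino acid alanine. The sources used here give no dose, route, vehicle composition, strain, age or sex, so whether the doses were matched is unknown. The labels do not say that the libraries came from separate animals, so p-values measure only how far these samples scatter, which may be partly technical.

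Complement is a cascade of blood and tissue proteins that tags particles and cells for removal. In the classical pathway the C1q molecule, built from A, B and C chains, binds a target and starts the cleavage of C4, C2 and then C3. The alternative pathway amplifies C3 cleavage through factor B, while factor I, CD55 and CD59 hold the cascade back on host surfaces. Macrophages and dendritic cells are known as the main local source of C1q, and kidney tubule cells are known to make other components, including C3 and factor B.

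After D-ala, C1qb, C1qc and Cd59a had fallen against vehicle, by 0.55, 0.64 and 0.31 on the log2(FPKM + 1) scale, and no member had risen. FPKM scales the fragments of a gene to its transcript length and to the size of the library, so values can be compared between genes. A gene was called when its adjusted p in limma, over the 11781 genes that reached 1 FPKM in at least 5 libraries, was under 0.05. C4b did not reach that level, so 8 of the 9 members were tested. After D-ala, 3 of the 8 fell, where 4.92% of all genes tested were called lower and 11.5% were called in either direction. The median member difference was -0.20, beside 0.00 for all genes tested. After L-ala, 0 of 8 members passed the limma test against vehicle, where 11% of all genes tested did, and 0 of 8 had an unadjusted p under 0.05. The median member difference there was -0.05, beside 0.01 for all genes. Between the treated groups, 2 of 8 members, C1qb and Cd59a, were lower after D-ala than after L-ala, where 6.66% of all genes were called lower and 13.7% in either direction. The median member difference there was -0.19, beside -0.01 for all genes. The 3 comparisons share libraries pairwise, so their values are given side by side and are not independent of each other. Because the members were chosen with earlier results of these data known, the shares and medians describe them and are no test of the set.

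**Figure D1:**
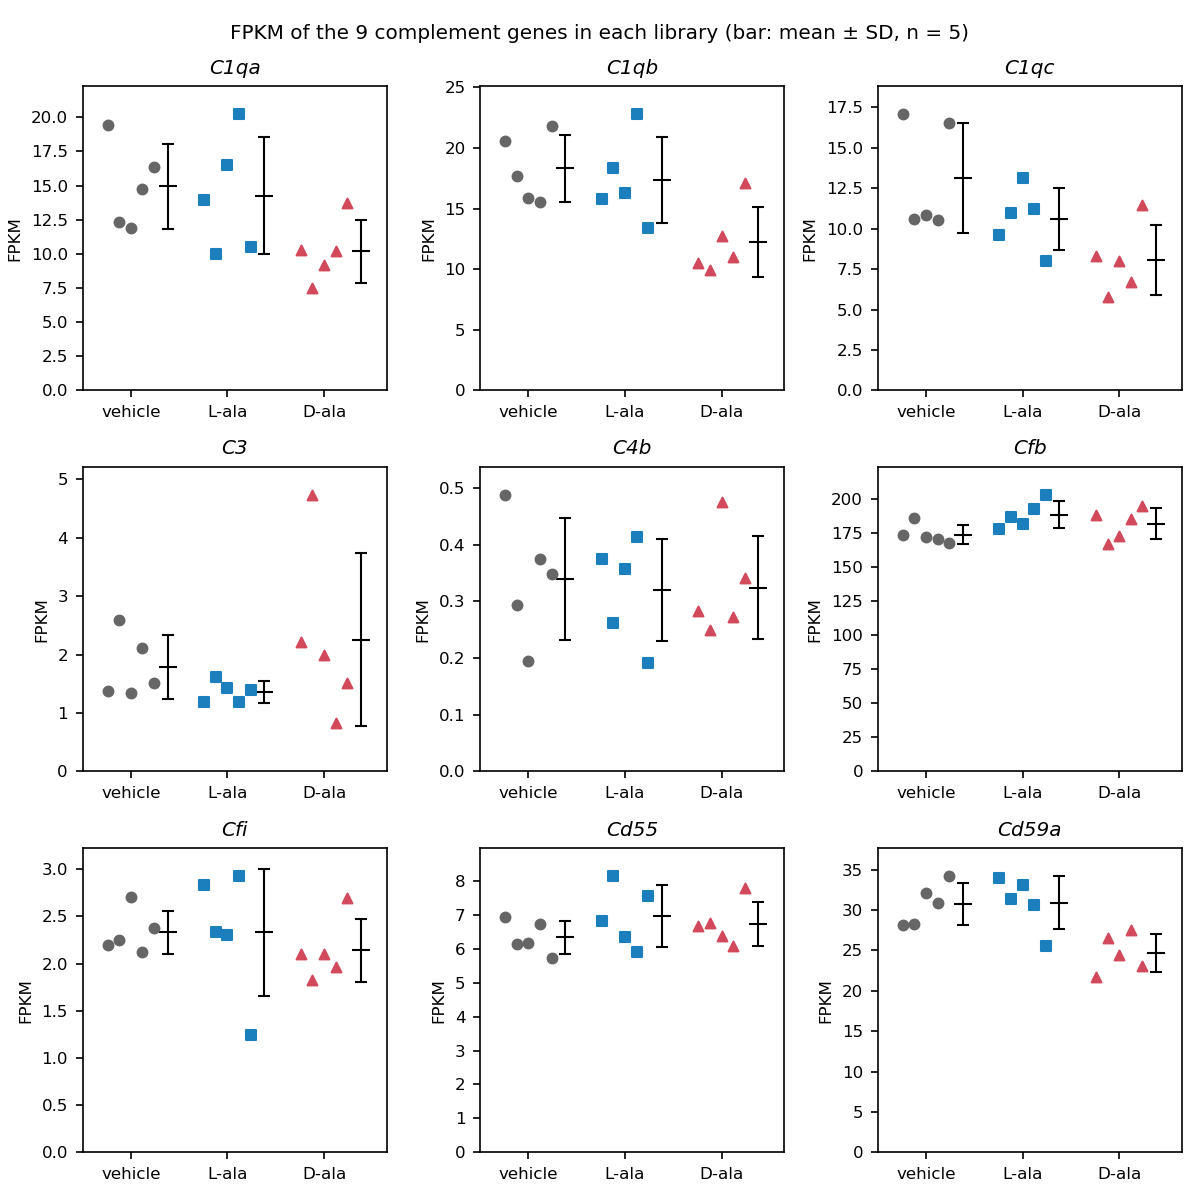
FPKM (vertical axes, from 0) of each of the 9 genes in every library of vehicle (circles), L-ala (squares) and D-ala (triangles), with the mean and SD of 5 libraries as a bar beside each group. The C1q chains and Cd59a lie lower in D-ala, 1 D-ala library stands high for C3, and Cfb sits between 167 and 203 FPKM throughout.

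Levels of the members ran from 203 FPKM for Cfb to 0.192 FPKM for C4b in single libraries. By mean FPKM over all libraries the order was Cfb, Cd59a, C1qb, C1qa, C1qc, Cd55, Cfi, C3 and C4b. Cfb exceeded Cd59a, Cd59a exceeded C1qb, Cd55 exceeded Cfi, and C3 exceeded C4b in 15 of 15 libraries. The other neighbours in the order crossed in some libraries. C1qb was above C1qa in 14 of 15, C1qa above C1qc in 13, C1qc above Cd55 in 14 and Cfi above C3 in 11.

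A pair of libraries bears on several results. For L-ala replicate 5, gene-centred log2 values correlated with those of the other L-ala libraries at -0.118 on average, against 0.071 to 0.288 for every other library with its own group. D-ala replicate 2 had the highest summed level of 8 adipocyte markers, 482 FPKM, against 86.2 to 451 FPKM in the other libraries. The tissue label fitted its markers: 6 proximal tubule markers summed to between 2101 and 2856 FPKM in every library. Group differences of members that depend on either library are given with and without it. Correlations of members with the genes most like them are given over all libraries only.

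The 3 C1q chains are encoded side by side within 18.7 kb, at chr4:136880129-136898803 (GRCm38, GENCODE vM21), all on the minus strand. C1qb lies at chr4:136880129-136886187, C1qc at chr4:136889804-136893065 and C1qa at chr4:136895917-136898803. In vehicle, C1qa, the A chain, measured 19.5, 12.3, 11.9, 14.7 and 16.3 FPKM in replicates 1 to 5. In L-ala, C1qa measured 13.9, 9.98, 16.5, 20.3 and 10.5 FPKM. In D-ala, C1qa measured 10.3, 7.49, 9.18, 10.2 and 13.7 FPKM. Every D-ala library lay below the vehicle median of 14.7 FPKM, but D-ala replicate 5 lay within the vehicle range. The limma difference from vehicle was -0.51 ± 0.19 (SE), with a 95% interval of -0.91 to -0.11, and did not pass (adjusted p = 0.0887).

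For C1qb, the B chain, the vehicle libraries measured 20.6, 17.7, 15.9, 15.6 and 21.8 FPKM. The L-ala libraries measured 15.8, 18.4, 16.3, 22.8 and 13.4 FPKM for C1qb. The D-ala libraries measured 10.5, 9.93, 12.7, 11 and 17.1 FPKM for C1qb. Of the D-ala libraries, 4 lay below every vehicle library and every L-ala library, and replicate 5 lay inside both ranges. The mean fell from 18.3 ± 2.79 FPKM in vehicle to 12.3 ± 2.91 FPKM in D-ala (SD, n = 5 each). The difference from vehicle was -0.55 ± 0.15 (SE) in limma, adjusted p = 0.0237. The C1qb call was lost in limma without vehicle replicate 1 (adjusted p = 0.0550), vehicle replicate 5 (0.0573), D-ala replicate 1 (0.0611) or D-ala replicate 2 (0.0602).

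The C chain gene, C1qc, measured 17.1, 10.6, 10.8, 10.5 and 16.5 FPKM in the vehicle libraries. In the L-ala libraries C1qc measured 9.59, 11, 13.1, 11.2 and 8.0 FPKM. In the D-ala libraries C1qc measured 8.33, 5.78, 7.98, 6.67 and 11.5 FPKM. As for C1qb, 4 D-ala libraries were below every vehicle library and replicate 5 was not. The C1qc mean was 13.1 ± 3.38 FPKM in vehicle and 8.04 ± 2.16 FPKM in D-ala (SD, n = 5 each), a limma difference of -0.64 ± 0.17 (SE) with adjusted p = 0.0276. That call was lost in limma without vehicle replicate 1 (adjusted p = 0.0637), vehicle replicate 5 (0.0638), D-ala replicate 2 (0.0681) or D-ala replicate 4 (0.0576), and without L-ala replicate 5 and D-ala replicate 2 together (0.0534).

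Against vehicle, the chains did not pass the test in L-ala. The limma differences were -0.09 for C1qa (95% interval -0.49 to 0.31), -0.08 for C1qb (-0.40 to 0.23) and -0.27 for C1qc (-0.64 to 0.10). Between the mirror-image forms, C1qb was lower after D-ala by 0.47 ± 0.15 (SE) in limma, adjusted p = 0.0451. This C1qb call held in 11 of 26 alternatives and was lost without any 1 of vehicle replicates 1 to 3, L-ala replicates 1 to 4 or D-ala replicates 1 to 4, with adjusted p between 0.0502 and 0.12. C1qa differed by -0.42 (adjusted p = 0.138, limma) and C1qc by -0.37 (adjusted p = 0.16, limma) between D-ala and L-ala.

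The promoter windows of the 3 members that fell after D-ala are shown because C1qb and C1qc neighbour each other and moved the same way, while Cd59a lies on another chromosome. Each runs from 250 bases before to 50 bases after the RefSeq transcript start (GRCm38.p6), and 5 of the 9 members had such a window. Capitals mark GAGGAA, a core of sites bound by PU.1 and other ETS factors, or its reverse complement TTCCTC.
C1qb, chr4:136886151-136886450, minus strand: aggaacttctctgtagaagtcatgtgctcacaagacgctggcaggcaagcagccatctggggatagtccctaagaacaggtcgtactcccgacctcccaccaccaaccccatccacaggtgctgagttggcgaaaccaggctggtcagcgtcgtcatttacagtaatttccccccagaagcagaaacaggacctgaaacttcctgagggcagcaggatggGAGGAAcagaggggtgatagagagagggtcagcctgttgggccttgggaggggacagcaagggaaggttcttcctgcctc
C1qc, chr4:136892865-136893164, minus strand: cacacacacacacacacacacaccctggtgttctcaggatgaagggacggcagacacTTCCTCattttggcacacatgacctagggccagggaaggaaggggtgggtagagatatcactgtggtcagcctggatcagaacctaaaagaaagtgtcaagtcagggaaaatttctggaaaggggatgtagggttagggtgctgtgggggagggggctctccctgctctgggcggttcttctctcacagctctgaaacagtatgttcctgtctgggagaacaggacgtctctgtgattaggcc
Cd59a, chr2:104095551-104095850, plus strand: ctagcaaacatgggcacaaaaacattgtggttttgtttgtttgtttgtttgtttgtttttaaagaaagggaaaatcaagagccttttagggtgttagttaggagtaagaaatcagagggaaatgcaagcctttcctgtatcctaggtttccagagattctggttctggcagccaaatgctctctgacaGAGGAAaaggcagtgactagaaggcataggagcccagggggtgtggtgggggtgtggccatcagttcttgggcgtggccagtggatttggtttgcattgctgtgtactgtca
The match begins at -30 in C1qb, at -193 in C1qc, where it reads TTCCTC, and at -62 in Cd59a, counted from the transcript start. On either strand, GAGGAA occurred in 28.3% of 32851 RefSeq windows of this length. It was not found in the windows of C3 and Cd55, and CCAAT, present in 37.4% of windows on either strand, was in none of the 5. TATAAA, present in 13.6% of windows, occurred in that of C3. A match describes letters only.

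Within groups the C1q chains varied together. After centring each group, Pearson's r over the 15 libraries was 0.793 for C1qb with C1qc, 0.735 for C1qa with C1qc and 0.697 for C1qa with C1qb. In permutation tests within groups, adjusted over 5 pairs chosen after the data were seen, p was 0.00873, 0.00873 and 0.0172. Spearman's rho was 0.839, 0.786 and 0.625, with permutation p of 0.00342, 0.00342 and 0.042 after adjustment. Without the 2 libraries farthest from the median of the second gene, r was 0.688, 0.632 and 0.448.

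Genes of antigen presentation by MHC class II tracked the C1q chains most closely among the genes compared. These were all genes tested, leaving out gene models with Gm, Rik or purely numeric names. H2-Aa had the highest Pearson correlation with C1qa (0.947) and with C1qc (0.893). H2-Ab1 had the highest with C1qb (0.934), over 15 libraries that share RNA and scaling. H2-Eb1, another class II chain, and Cd74, the class II invariant chain, filled the next places together with H2-Ab1. After centring each group these correlations were between 0.799 and 0.942. The genes were picked by correlation over these same libraries, so a fall after D-ala is partly built into the choice and is no separate result. H2-Aa was 78.4 ± 17.3 FPKM in vehicle and 51.6 ± 8.94 FPKM in D-ala (SD, n = 5 each), a limma difference of -0.58, adjusted p = 0.0357. H2-Ab1 differed by -0.63 (adjusted p = 0.0405, limma), while H2-Eb1 at -0.56 (adjusted p = 0.0554) and Cd74 at -0.58 (adjusted p = 0.0634) did not pass in limma. D-ala replicate 2 was the lowest library and D-ala replicate 5 the highest of its group for H2-Aa, at 38.2 and 63.4 FPKM, and the same held for C1qa.

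**Figure D2:**
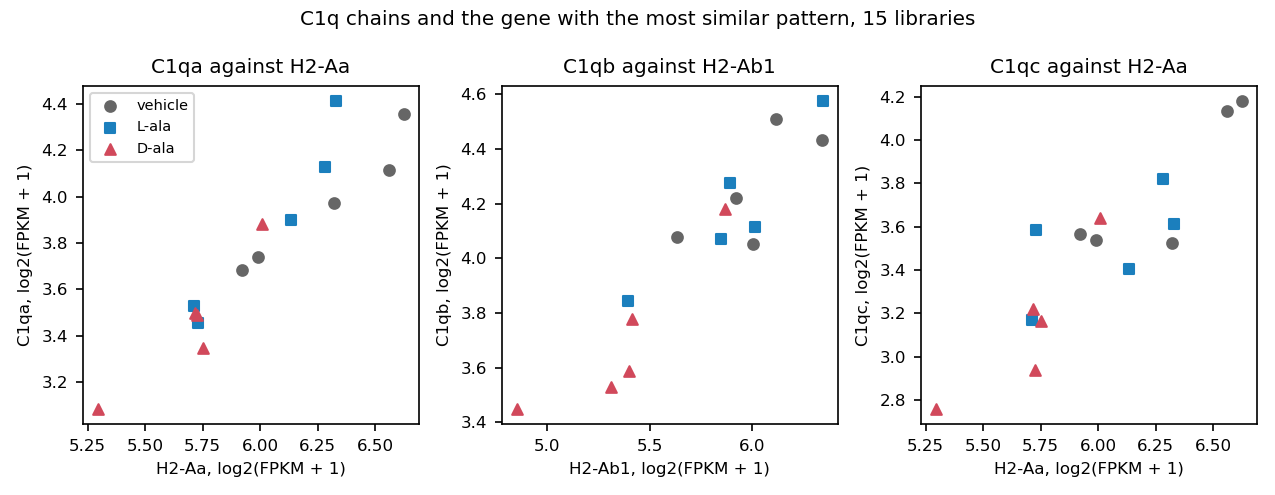
log2(FPKM + 1) of each C1q chain (vertical axis) against the gene of most similar pattern (horizontal axis), 1 point per library, with vehicle as circles, L-ala as squares and D-ala as triangles. Points rise together in all 3 panels, and D-ala replicate 2 is the lowest point on the horizontal axis in each.

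Macrophage markers moved with the C1q chains in part. Of 17 macrophage markers in the table, 11 were tested and all 11 differences from vehicle were below 0 after D-ala, with a median of -0.35. Of all 11781 genes tested, 5848 were below 0, with a median of 0.00, and 4.92% were called lower. In limma, 3 of the 11 fell and 0 rose: Ctss, the protease cathepsin S, by 0.93 (adjusted p = 0.00701), Lyz2, the macrophage lysozyme, by 0.91 (adjusted p = 2.66e-05) and Mpeg1, a pore-forming protein of phagocytes, by 0.43 (adjusted p = 0.037). Csf1r, the receptor that macrophages need for survival, was 13.6 ± 1.62 FPKM in vehicle and 13.4 ± 1.20 FPKM in D-ala (SD, n = 5 each) and differed by -0.02. The summed level of the 17 markers ran from 66.3 to 93.0 FPKM in vehicle, 58.3 to 87.4 FPKM in L-ala and 52.7 to 62.7 FPKM in D-ala. None of the 17 was at 0 in every library, although Cd163 did not exceed 0.11 FPKM in any. In L-ala, 2 of the 11 fell against vehicle in limma, where 4.53% of all genes tested were called lower. They were Lyz2, by 0.38 (adjusted p = 0.0237), and Mpeg1, by 0.42 (adjusted p = 0.0427), while no C1q chain passed. The part of these markers in the C1q differences was not tested, and in bulk kidney fewer cells of a type and less RNA per cell cannot be told apart.

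**Figure D3:**
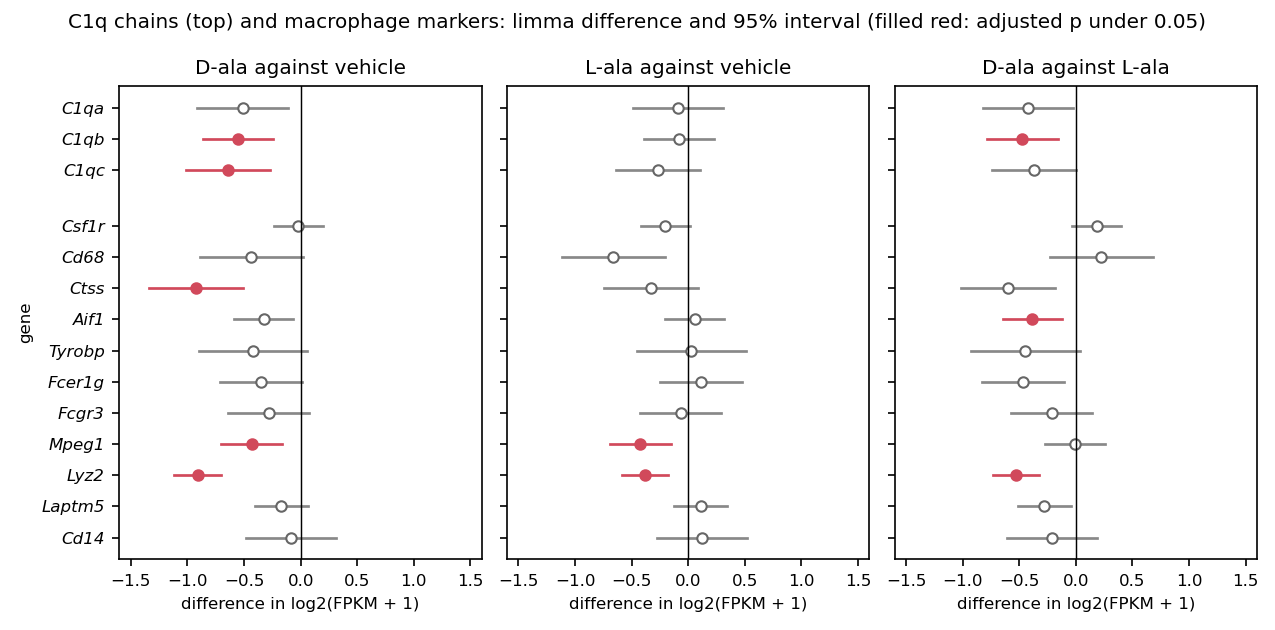
Difference in log2(FPKM + 1) for the 3 C1q chains (top) and the 11 tested macrophage markers in the 3 comparisons, with 95% limma intervals as lines and filled red points for adjusted p under 0.05. Every point lies below 0 in the left panel, where Csf1r sits at -0.02 and Ctss and Lyz2 lie farthest left.

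C3, the protein on which all pathways meet, was expressed at a low level and varied most in D-ala. Its gene lies at chr17:57203970-57228136, minus strand, and overlaps the microRNA gene Mir6978. In vehicle, C3 measured 1.37, 2.60, 1.34, 2.11 and 1.51 FPKM. In L-ala, C3 measured 1.18, 1.61, 1.42, 1.18 and 1.40 FPKM. In D-ala, C3 measured 2.21, 4.74, 2.00, 0.821 and 1.51 FPKM, with both the highest and the lowest of the 15 libraries in this group. The coefficient of variation was 65.9% in D-ala, 30.8% in vehicle and 13.4% in L-ala. The limma difference between D-ala and vehicle was 0.14 (95% interval -0.33 to 0.61, adjusted p = 0.74), and it became -0.09 without D-ala replicate 2. C3 differed by -0.22 between L-ala and vehicle (adjusted p = 0.52, limma) and by 0.36 between D-ala and L-ala (adjusted p = 0.281, limma).

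The library with the highest C3 also had the highest adipocyte markers and the highest Cfd, which encodes factor D, the alternative pathway protease also known as adipsin. Cfd measured 36.8, 118, 44.9, 0 and 24.6 FPKM in the D-ala libraries, so replicate 4, the lowest for C3, was listed at 0 for Cfd. The fat hormone gene Adipoq, a defining adipocyte marker, was 22.1 FPKM in D-ala replicate 2 and listed at 0 in replicate 4. Cfd differed by 1.12 between D-ala and vehicle with a 95% interval of -1.36 to 3.60 (limma, adjusted p = 0.586). Of 7 tested adipocyte markers, 0 of 7 passed in limma after D-ala, 0 had an unadjusted p under 0.05, and all 7 differences were above 0, with a median of 0.82. The summed level of all 8 ran from 113 to 451 FPKM in vehicle, 159 to 239 FPKM in L-ala and 86.2 to 482 FPKM in D-ala. After centring each group, Pearson's r of C3 with the mean adipocyte marker level was 0.641 and Spearman's rho was 0.583, neither passing within-group permutation tests over 15 libraries (adjusted p = 0.0698 and 0.0658). For C3 with Cfd, r was 0.692 and rho 0.497 (adjusted permutation p = 0.0698 and 0.095). The r with Cfd was 0.154 without D-ala replicates 2 and 4, so it rests on those libraries, and the r with the marker mean was 0.468 without vehicle replicate 4 and D-ala replicate 4. The part of adipocyte RNA in the spread of C3 was not tested.

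**Figure D4:**
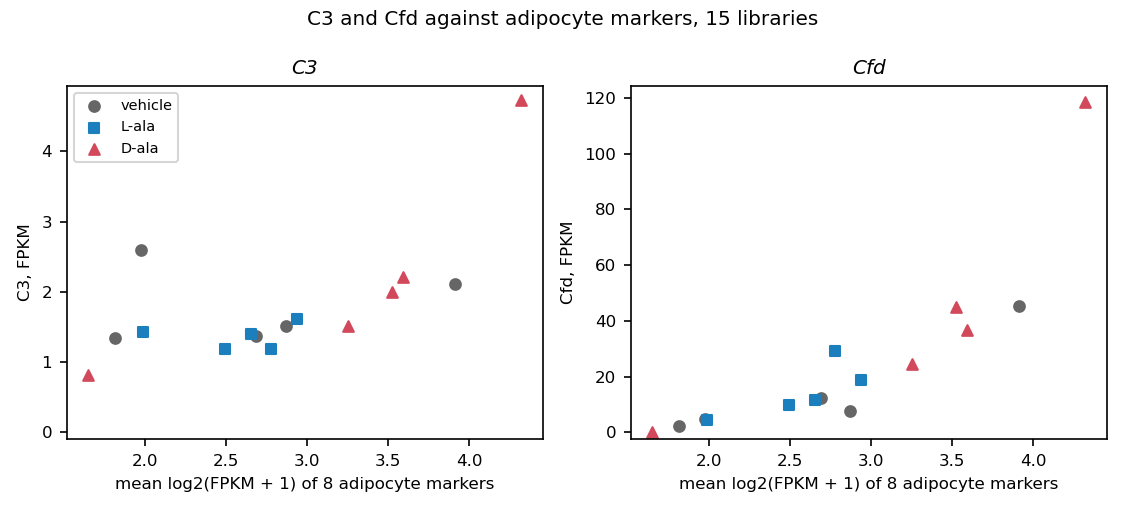
C3 (left) and Cfd (right) in FPKM against the mean log2(FPKM + 1) of 8 adipocyte markers, 1 point per library, with vehicle as circles, L-ala as squares and D-ala as triangles. D-ala replicate 2 is at the upper right of both panels, at 4.74 FPKM for C3 and 118 FPKM for Cfd, and D-ala replicate 4 is at the lower left.

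C4b, the fourth component shared by the classical and lectin pathways, was nearly silent. Its gene lies at chr17:34728380-34743882, minus strand. The vehicle libraries measured 0.488, 0.294, 0.195, 0.374 and 0.349 FPKM, the L-ala libraries 0.374, 0.262, 0.357, 0.413 and 0.192 FPKM, and the D-ala libraries 0.283, 0.249, 0.475, 0.272 and 0.341 FPKM for C4b. The groups overlapped. The exact two-sided permutation test gave p = 0.786 between D-ala and vehicle, 0.77 between L-ala and vehicle and 0.944 between the treated groups, where the smallest p this design can give is 0.00794. C4a, a near-identical copy, was at most 0.151 FPKM, and the sources used here do not say how shared reads were divided, so the C4b level is uncertain.

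Cfb, which encodes factor B, the catalytic subunit of the alternative pathway C3 convertase, was the most abundant member. Its gene lies at chr17:34856374-34862518, minus strand, and overlaps the gene model Gm20547 and the microRNA gene Mir6972 on the same strand, so reads could have been divided between them. In vehicle, Cfb measured 174, 186, 172, 171 and 168 FPKM. In L-ala, Cfb measured 178, 187, 182, 193 and 203 FPKM. In D-ala, Cfb measured 188, 167, 173, 186 and 195 FPKM. The groups overlapped, and the coefficient of variation within a group was between 4.1% and 6.27%. The limma difference from vehicle was 0.06 after D-ala (95% interval -0.05 to 0.18, adjusted p = 0.522) and 0.12 after L-ala (95% interval from just under 0 to 0.23, adjusted p = 0.167). Quantile normalization turned both directions, to -0.03 and -0.05. Among the genes of most similar pattern were Dnajc22 (r = 0.869) and Amacr (0.856) over 15 libraries. L-ala replicate 5 was the highest library for Cfb, for Dnajc22 (91.8 FPKM) and for Amacr (224 FPKM). These correlations are given only with that library included, so they may lean on it. Amacr, an enzyme of fatty acid oxidation, was 167 ± 15.1 FPKM in vehicle (SD, n = 5).

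The regulators did not move as a group. Cfi encodes factor I, the protease that inactivates C3b and C4b, and lies at chr3:129835884-129875332, plus strand. Cfi measured 2.2, 2.25, 2.70, 2.13 and 2.37 FPKM in vehicle, 2.84, 2.34, 2.30, 2.93 and 1.25 FPKM in L-ala, and 2.10, 1.83, 2.10, 1.97 and 2.70 FPKM in D-ala. The groups overlapped, and the lowest value belonged to L-ala replicate 5. In limma Cfi differed from vehicle by -0.09 after D-ala (95% interval -0.35 to 0.18, adjusted p = 0.705) and by -0.02 after L-ala (95% interval -0.29 to 0.24, adjusted p = 0.913). The L-ala difference became 0.11 without L-ala replicate 5. The genes most like Cfi were Stk30 (r = 0.812), Ramp2 (0.811) and Fbln7 (0.801). L-ala replicate 5 was also the lowest library for Stk30, Ramp2 and Fbln7, at 3.66, 11.9 and 1.40 FPKM. These correlations are given only with that library included, so they may lean on it.

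Cd55 encodes decay-accelerating factor, a surface protein that dismantles C3 convertases, and lies at chr1:130439027-130462744, minus strand, overlapping the model Gm16083 on the other strand. Cd55 measured 6.92, 6.13, 6.17, 6.73 and 5.73 FPKM in vehicle, 6.81, 8.15, 6.34, 5.90 and 7.56 FPKM in L-ala, and 6.67, 6.76, 6.37, 6.09 and 7.80 FPKM in D-ala. The groups overlapped. In limma Cd55 differed from vehicle by 0.08 after D-ala (95% interval -0.10 to 0.25, adjusted p = 0.609) and by 0.11 after L-ala (95% interval -0.06 to 0.29, adjusted p = 0.372). Between D-ala and L-ala it differed by -0.04 (95% interval -0.21 to 0.14, adjusted p = 0.80, limma). Lrrc56 (r = 0.806), Ankrd27 (0.777) and Tmem178 (0.773) were most like it.

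Cd59a, which encodes the surface inhibitor of the membrane attack complex, was the regulator that fell after D-ala. It lies at chr2:104095801-104115354, plus strand. In vehicle, Cd59a measured 28.1, 28.3, 32.1, 30.9 and 34.3 FPKM. In L-ala, Cd59a measured 33.9, 31.3, 33.1, 30.7 and 25.5 FPKM. In D-ala, Cd59a measured 21.8, 26.6, 24.5, 27.5 and 23.1 FPKM. Every D-ala library was below every vehicle library, which held for 1 of the 8 members tested and for 4.76% of all genes tested. The mean was 30.7 ± 2.59 FPKM in vehicle and 24.7 ± 2.39 FPKM in D-ala (SD, n = 5 each), a limma difference of -0.31 ± 0.08 (SE) with adjusted p = 0.0244. Leaving out vehicle replicate 3 (adjusted p = 0.0544), 4 (0.0551) or 5 (0.0601), or else replicate 1 (0.0675) or 5 (0.0578) of D-ala, ended the call in limma.

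In L-ala, Cd59a did not pass against vehicle (0.00, 95% interval -0.17 to 0.18, adjusted p = 0.976, limma). Between the mirror-image forms, Cd59a was lower after D-ala by 0.31 ± 0.08 (SE), adjusted p = 0.0224 in limma. L-ala replicate 5 was the lone L-ala library inside the D-ala range. In limma this call did not hold once L-ala replicate 1 (adjusted p = 0.0583), L-ala replicate 3 (0.0530) or the first D-ala replicate (0.0582) was left out. Its paralog Cd59b was 3.10 ± 1.08 FPKM in vehicle and 2.45 ± 0.76 FPKM in D-ala (SD, n = 5 each), a difference of -0.24 that did not pass in limma (adjusted p = 0.466), and reads of the paralogs could have been divided between them. Pdrg1 (r = 0.897), Api5 (0.884) and Cby1 (0.883) had the patterns most like Cd59a. They were picked by correlation over these same libraries, so group differences shared with Cd59a are built into the choice and are no separate result.

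Of 49 other complement genes, 45 were in the table and 19 were tested. After D-ala, 0 of the 19 rose against vehicle in limma and Serping1 was among those that fell. Serping1 encodes C1 inhibitor, which disables the proteases attached to C1q, and lies at chr2:84765387-84775444. Serping1 measured 28.8, 18.2, 24.6, 24.1 and 25.8 FPKM in vehicle, 18, 16.5, 26.3, 20.6 and 12.9 FPKM in L-ala, and 11.7, 11.4, 12, 17.2 and 13.8 FPKM in D-ala. Every D-ala library was below every vehicle library, and the limma difference was -0.84 ± 0.16 (SE), adjusted p = 0.00399. The call held in 26 of 26 alternatives, with adjusted p up to 0.0129 in limma. This fall is larger than that of any member on the log2 scale. Fibroblast and pericyte markers were mixed after D-ala. Of 8 tested, 2 fell and 0 rose in limma, where 4.92% of all genes tested were called lower. Pdgfra fell by 0.63 (adjusted p = 0.00748) and Dcn by 0.66 (adjusted p = 0.0379). Of the 8 differences, 7 were below 0, and that of Cspg4 was above, at 0.26 (adjusted p = 0.0549, limma). The summed level of 9 such markers ran from 58.4 to 83.5 FPKM in vehicle, 47.3 to 77.7 FPKM in L-ala and 54.4 to 67.0 FPKM in D-ala. None of the 9 was at 0 in every library. Of 8 endothelial markers, 3 fell after D-ala and 5 fell after L-ala in limma, where 4.92% and 4.53% of all genes tested were called lower. Their summed level ran from 96.5 to 165 FPKM in vehicle, 60.2 to 137 FPKM in L-ala and 68.9 to 103 FPKM in D-ala, and the part of these markers in the fall of Serping1 was not tested.

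Between D-ala and L-ala, Serping1 differed by -0.46 and did not pass in limma (adjusted p = 0.0673). It passed in limma without L-ala replicate 5, without D-ala replicate 4, and without L-ala replicate 5 and D-ala replicate 2 together. Mbl1, a mannose-binding lectin that starts the lectin pathway, was 4.30 ± 0.83 FPKM in D-ala and 6.29 ± 0.54 FPKM in L-ala (SD, n = 5 each). Vehicle lay between them, at 5.04 ± 0.86 FPKM (SD, n = 5). Against vehicle, Mbl1 did not pass in limma after D-ala (-0.19, adjusted p = 0.293) or after L-ala (0.28, adjusted p = 0.105). Every D-ala library was below every L-ala library for Mbl1, as for 4.02% of all genes tested and for 0 of the 8 members tested. The limma difference between D-ala and L-ala was -0.47 ± 0.11 (SE), adjusted p = 0.0148, and the call held in 26 of 26 alternatives.

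After L-ala, 2 of the 19 other genes rose and 0 fell against vehicle, where 6.48% of all genes tested were called higher. Cr1l, which encodes the rodent membrane regulator Crry, measured 18.7 ± 0.94 FPKM in vehicle and 21.9 ± 2.10 FPKM in L-ala (SD, n = 5 each), a limma difference of 0.22 ± 0.06 (SE), adjusted p = 0.0425. C1qbp, a largely mitochondrial protein that can bind C1q, measured 136 ± 11.2 FPKM in vehicle and 159 ± 11.6 FPKM in L-ala (SD, n = 5 each), a limma difference of 0.23 ± 0.06 (SE), adjusted p = 0.0343. Cr1l kept its call in 14 of 26 alternatives and C1qbp in 17 of 26. Cr1l was lost in limma without any 1 of vehicle replicates 1 to 4, L-ala replicates 1, 3 and 4 or D-ala replicate 3 (adjusted p up to 0.113), and C1qbp without any 1 of vehicle replicates 1, 2 and 4 or L-ala replicates 1, 3 and 4 (adjusted p up to 0.101). With L-ala replicate 5 left out, 4 genes passed, C1qbp, C8a, C8g and Cr1l. These are not all rises: with all libraries in the limma fit, C8a differed by -0.21 and C8g by 0.23, and neither passed.

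The 5 most abundant of the other genes by mean FPKM over all libraries were Calr, Clu, C1qbp, C8g and Cfd. Cfd averaged 24.8 FPKM, and without D-ala replicate 2 it averaged 18.1 FPKM and stood in place 8, with C2, a classical pathway protease, in place 5 at 24 FPKM. Calr, calreticulin, an endoplasmic reticulum chaperone that also binds C1q, was 331 ± 19 FPKM in vehicle, 358 ± 12.8 FPKM in L-ala and 328 ± 16.8 FPKM in D-ala (SD, n = 5 each). Clu, clusterin, a soluble inhibitor of the membrane attack complex, was 142 ± 20.7, 158 ± 13.4 and 165 ± 13.5 FPKM in the same order, and its D-ala difference of 0.23 did not pass in limma (adjusted p = 0.105). C8g, the gamma chain of C8, was 23.7 ± 2.94, 28 ± 2.97 and 23.5 ± 2.97 FPKM, and overlaps Fbxw5 on the other strand. Calr, Clu and C8g did not pass in any comparison with all libraries in the limma fit.

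**Figure D5:**
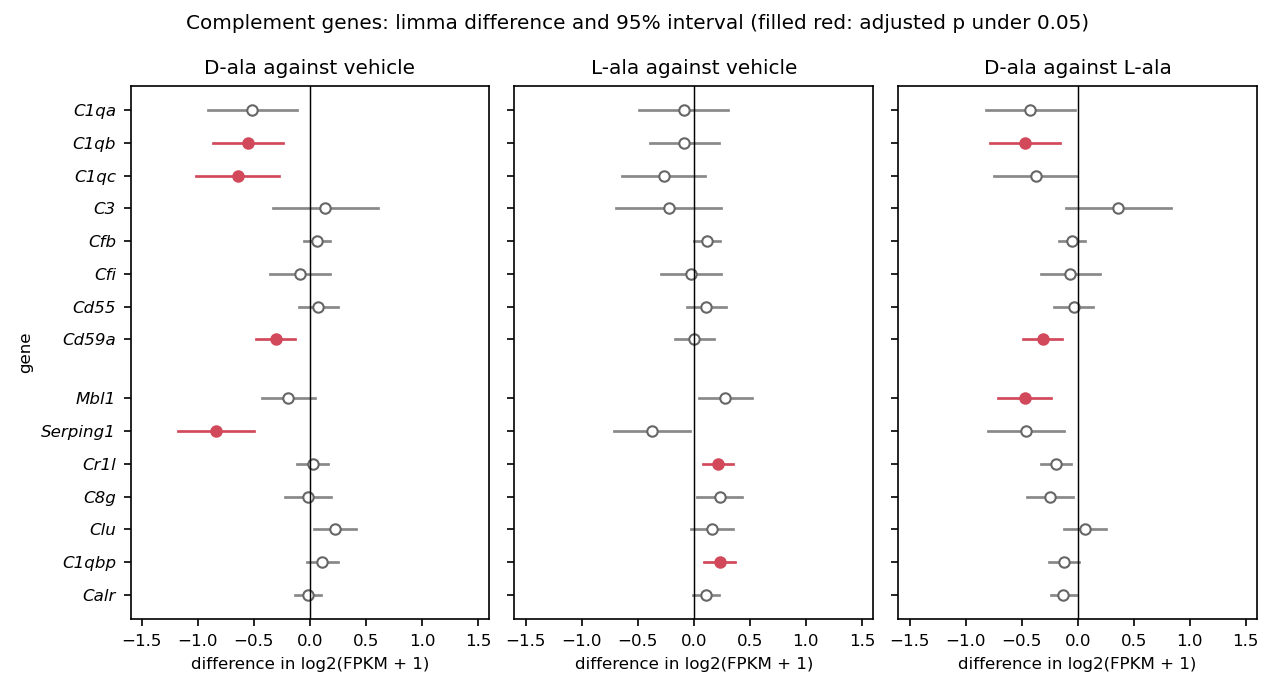
Difference in log2(FPKM + 1) for the 8 tested members (top) and 7 other complement genes that the text describes (below), with 95% limma intervals as lines and filled red points for adjusted p under 0.05. In the left panel Serping1 lies farthest from 0, at -0.84.

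C3 and Cfb are known targets of acute-phase and NF-kB signalling in other settings, so other genes of that response were set beside them. Of 26 tested, 8 rose and 2 fell after L-ala in limma, where 6.48% of all genes tested were called higher and 4.53% lower. After D-ala, 4 of the 26 rose and 1 fell, where 6.53% of all genes were called higher and 4.92% lower, so the share that fell was near that of all genes. Those that rose after L-ala were Cxcl1, Cxcl2, Nfkbia, Nfkbiz, Tnfaip3, Cebpb, Cebpd and Irf1, and Cp and Nfkb1 fell. Cxcl2 met the filter only through its L-ala libraries, at 2.32 to 6.57 FPKM. It was at most 0.218 FPKM in vehicle and 1.05 FPKM in D-ala. Its calls against L-ala, in both directions of comparison, therefore follow in part from the filter. After D-ala, Cxcl1, Cebpb, Cebpd and Stat3 rose and Vcam1 fell. Between D-ala and L-ala, Cxcl1, Cxcl2, Cxcl10, Nfkbia, Tnfaip3 and Irf1, 6 of the 26, were lower after D-ala and Stat3 was higher, where 6.66% of all genes were called lower and 7.01% higher. Neutrophil markers moved beside this list. Of 7 in the table, the 2 tested, S100a8 and S100a9, rose after L-ala by 2.03 (adjusted p = 0.0231) and 1.80 (adjusted p = 0.0204) in limma, and both were lower after D-ala than after L-ala. The summed level of the 7 ran from 0.676 to 7.81 FPKM in vehicle, 13.2 to 35.4 FPKM in L-ala and 2.42 to 11.4 FPKM in D-ala, and Mmp8 was listed at 0 in every vehicle library. Of 6 tested red blood cell markers, 0 passed in limma after L-ala, 5 had an unadjusted p under 0.05, and all 6 differences were above 0, with a median of 1.70. The summed level of 7 such markers ran from 25.5 to 267 FPKM in vehicle, 274 to 754 FPKM in L-ala and 43.9 to 471 FPKM in D-ala. The part of these cells in the changes of the list was not tested. Nfkbia, the inhibitor of NF-kB that the factor itself induces, differed by 2.38 after L-ala (adjusted p = 0.00411, limma), where C3 differed by -0.22 and Cfb by 0.12. Cebpb, an acute-phase transcription factor, differed by 1.93 after D-ala (adjusted p = 0.0114, limma), where C3 differed by 0.14 and Cfb by 0.06. Most of the list did not move with Cebpb there: 21 of the 26 did not pass after D-ala, among them Nfkbia at 0.03 (adjusted p = 0.979, limma). Neither C3 nor Cfb passed the limma test in any of the 3 comparisons.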

How the data were processed

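RNA was extracted with TRIzol and made into stranded messenger RNA libraries with a TruSeq kit, per the labels' protocols. The submitters' processing notes name the mouse build mm10 and the tools SAMtools 0.1.19, Bowtie2 2.2.3 and TopHat2 2.0.13. For the program, annotation and strand setting behind the gene values, the sources used here give nothing. The authors deposited 1 table with FPKM values per gene and library, per the file headers, and these are the values analysed. A deposited column headed as a count was treated as a score, because its whole numbers are rescaled: in vehicle replicate 1, 17 genes stand at 3, against 512 at 2 and 347 at 4. Its totals, 9033022 to 10596691 per library, are not depth, so the depth and counting error behind each value are unknown, and no count model was used.

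Groups were taken from the treatment label, and replicates numbered 1 to 5 in sample order. FPKM values were tested as log2(FPKM + 1) with limma 3.58.1 (R 4.3.3), 1 mean per group, all 15 libraries, a mean-variance trend and robust variances, on the 11781 genes that reached 1 FPKM in at least 5 libraries. Fold differences are on that scale and understate changes of low genes. P-values were adjusted by Benjamini-Hochberg over all genes tested within a comparison and called under 0.05. C4b was tested by exact permutation. Correlations used 100000 permutations within groups. The script was tested on simulated data. Over genes, the squared difference of the score column over its sum averaged 5.48 or more in every pair of a group. That column is rescaled by an unknown factor, so this value cannot tell whether any pair was alike within sampling noise. Other complement genes are named where called in any comparison or among the 5 highest. Similar genes are the 3 with the highest Pearson correlation, leaving out Gm, Rik and purely numeric names, with no test. Some genes that these rules pick are not reported here. Members and lists were chosen with earlier results of these data known. Coordinates are GENCODE vM21 (GRCm38), and promoters are RefSeq GRCm38.p6. Alternatives covered the pseudocount, filter, scaling, GC content, groups fitted, variance model and each library, and, chosen after the data were seen, transcript length and both doubtful libraries.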

Additional observations from a re-analysis of the deposited data

Results flagged for a closer look

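Among 54 groups of 5 libraries examined for 1 library far from the others, 1 was picked out, and chance picks out about 1 in 20. Cfd, which encodes factor D, was 45.46 FPKM in vehicle replicate 4, against 2.31 to 12.5 FPKM in the other vehicle libraries. The gap to the nearest library was 0.764 of the group's range, above Dixon's 95% critical value of 0.71. The same library had the highest summed adipocyte markers of its group, 451 FPKM, and Adipoq at 16.1 FPKM, against 0.537 to 3.63 FPKM in the other vehicle libraries. C3 was 2.11 FPKM there, second to vehicle replicate 2. The part of adipocyte RNA in this value was not tested.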

How the results depend on the processing

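Of the member counts, that of L-ala against vehicle was 0 in every alternative run, and that of D-ala against vehicle stayed between 2 and 4 except in the leave-one-out fits, where it ran from 0 to 3 (0 without vehicle replicate 5, 1 without vehicle replicate 1, D-ala replicate 1 or D-ala replicate 2). Between the treated groups it was 1 with no filter, quantile normalization, the length trend removed or only the groups compared, and 0 to 2 with 1 library left out. For the other complement genes, leaving out 1 library gave 0 to 4 for L-ala against vehicle and 1 to 6 for D-ala against L-ala. That L-ala count was 0 under quantile normalization, the length trend removed or only the groups compared, and 4 with both doubtful libraries left out, and that D-ala against L-ala count was then 5. C1qa passed for D-ala against vehicle with the length trend removed (adjusted p = 0.0358, limma, difference -0.53). Directions turned as follows, with no called difference among them. With both doubtful libraries left out, C3 became -0.092 for D-ala against vehicle, C1qa 0.0004 and Cfi 0.1107 for L-ala against vehicle, and Cfb 0.0027 for D-ala against L-ala. Under quantile normalization, Cfb became -0.0321, -0.05 and 0.018 in the 3 comparisons, and Cfi 0.0558 and Cd59a -0.0791 for L-ala against vehicle. Cd59a became -0.0737 there with the length trend removed, and Cd55 0.0048 for D-ala against L-ala with the GC trend removed. With 1 library left out, C3 for D-ala against vehicle ran from -0.092 to 0.3218. For L-ala against vehicle, C1qa ran from -0.2203 to 0.0182, Cfi from -0.0908 to 0.1107 and Cd59a from -0.0292 to 0.0699. For D-ala against L-ala, Cfi ran from -0.1996 to 0.0019 and Cd55 from -0.0853 to 0.0166. C4b ran from -0.05375 to 0.021, -0.05665 to 0.0166 and -0.03335 to 0.02775 FPKM in the 3 comparisons. The causes were not tested. Depth is unknown, which limits most the members near or below 1 FPKM, C3 and C4b. No paired analysis was possible because the labels number the samples in 1 series over all groups and pair none of them.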
